A study of Mus musculus with 14 samples.

Results

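Polycomb repressive complex 2 (PRC2) was followed through 9 genes in mouse hippocampus: the catalytic subunits Ezh1 and Ezh2, the core subunits Eed and Suz12, the histone-binding subunits Rbbp4 and Rbbp7, and the accessory factors Mtf2, Phf19 and Jarid2. The genes were chosen by symbol. Jarid2 was included because a locus of that name was among the calls in the authors' deposited tables, so its values in those tables are a description and not a test. All 9 genes were found among the 18735 genes with a value in at least 1 library, and all 9 were among the 16580 genes tested.

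PRC2 places methyl groups on lysine 27 of histone H3, a mark of silenced developmental genes. Ezh1 or Ezh2 carries the enzyme activity, Suz12 is the scaffold, Eed reads the mark that the complex makes, and Rbbp4 or Rbbp7 holds the histone. Accessory factors define alternative forms of the complex: Mtf2 and Phf19, which are Polycomb-like proteins, in one form, and Jarid2, a Jumonji-family protein without demethylase activity, in the other. In the brain Ezh2 is known from dividing progenitors and Ezh1 from mature neurons.

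The mice were C57BL6, 30 days old, and either wild type (KMT2D+/+) or heterozygous for the KMT2D+/bGeo allele, called mutant here. Kmt2d encodes a methyltransferase of lysine 4 of histone H3. Every mouse was gavaged with TAK-418 at 1 mg/kg/day, an inhibitor of the demethylase LSD1 (gene Kdm1a), or with its methylcellulose vehicle alone, for 2 weeks from 2 weeks of age. Whole hippocampus was sequenced with 3 vehicle and 5 TAK-418 libraries from wild types and 3 vehicle and 3 TAK-418 libraries from mutants. The tissue is a mixture of cell types, so fewer cells of a type and less RNA per cell cannot be told apart. The labels do not say whether every library came from a separate mouse, and p-values measure only the spread between these libraries.

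Promoter sequences were taken for the catalytic pair, for Suz12 and Phf19, which hold an E2F-type motif, and for the 2 starts of Jarid2 that the assembled transcripts use in different proportions. They are the bases upstream of the RefSeq start (build GRCm38.p6, 5′ to 3′ on the gene's strand), cut where an annotated exon begins. Capitals mark a motif that was found. The motifs searched on both strands were TTTCCCGC and TTTGGCGC (E2F type), TATAAA and the NRF1 palindrome.
Ezh1, chr11:101226464-101226713, minus strand: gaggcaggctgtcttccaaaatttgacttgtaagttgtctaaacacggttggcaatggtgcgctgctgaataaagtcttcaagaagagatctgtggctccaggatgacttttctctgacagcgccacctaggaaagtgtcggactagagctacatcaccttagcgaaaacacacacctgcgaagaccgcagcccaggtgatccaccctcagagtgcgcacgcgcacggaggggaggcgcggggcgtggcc
Ezh2, chr6:47595059-47595183, minus strand: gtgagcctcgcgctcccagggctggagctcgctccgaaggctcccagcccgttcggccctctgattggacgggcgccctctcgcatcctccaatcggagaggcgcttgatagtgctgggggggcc
Suz12, chr11:79992856-79993105, plus strand: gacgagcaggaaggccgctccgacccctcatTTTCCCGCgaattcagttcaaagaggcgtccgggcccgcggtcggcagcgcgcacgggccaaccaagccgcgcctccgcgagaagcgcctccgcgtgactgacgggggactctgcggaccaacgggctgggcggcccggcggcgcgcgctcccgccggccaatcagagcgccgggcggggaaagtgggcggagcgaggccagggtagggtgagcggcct
Phf19, chr2:34914027-34914215, minus strand: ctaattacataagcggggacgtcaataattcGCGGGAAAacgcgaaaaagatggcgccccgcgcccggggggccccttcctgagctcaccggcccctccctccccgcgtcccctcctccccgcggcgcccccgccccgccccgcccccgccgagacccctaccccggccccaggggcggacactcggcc
Jarid2 upstream start, chr13:44730524-44730773, plus strand: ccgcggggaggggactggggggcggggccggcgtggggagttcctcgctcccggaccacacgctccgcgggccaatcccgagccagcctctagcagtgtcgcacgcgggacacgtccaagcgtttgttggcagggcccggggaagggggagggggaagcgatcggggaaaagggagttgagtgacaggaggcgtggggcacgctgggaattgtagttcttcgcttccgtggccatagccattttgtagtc
Jarid2 downstream start, chr13:44731021-44731270, plus strand: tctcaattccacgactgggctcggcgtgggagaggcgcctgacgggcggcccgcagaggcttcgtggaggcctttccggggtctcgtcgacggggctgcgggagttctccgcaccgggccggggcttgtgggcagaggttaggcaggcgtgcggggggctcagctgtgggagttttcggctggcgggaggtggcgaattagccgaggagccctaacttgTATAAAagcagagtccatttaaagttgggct

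All 9 genes matched the RefSeq promoter table, with 11 promoters of 300 bases that reach 50 bases past the start. TTTCCCGC stood in that of Suz12, at position -219 from the start, and in that of Phf19 at -208, where it reads GCGGGAAA because it lies on the other strand. It occurs in 1.07% of all 32851 promoters of that length. TTTGGCGC stood in the Ezh2 promoter just past the start, outside the stretch shown, and occurs in 0.514% of promoters. TATAAA was found at position -31 from the downstream Jarid2 start and in no other promoter of the 9 genes, against 13.6% of all promoters. The NRF1 palindrome was in 0 of the 11, against 0.971% of all promoters. The Ezh2 promoter held 31 CpG pairs and the Ezh1 promoter 23, against a median of 7 over all promoters.

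Levels are given as scaled abundance. This is the abundance deposited for the assembled transcripts of a gene, summed and scaled between libraries, on a scale that its values place near fragments per kilobase of transcript and sequencing depth (FPKM). For 13 libraries the relative depth lay between 35.1 and 59.9 M, and wild-type TAK-418 replicate 1 was deepest at 168 M. Mutant vehicle replicate 1 and mutant TAK-418 replicate 2 stood apart by Lars2 abundances of 3781 and 2860, against 5.64 to 264 in the other 12. Kmt2d, the targeted gene, had a mean of 13.994 ± 0.233 (SD, n = 3) in vehicle wild types and of 11.9 ± 2.14 (SD, n = 3) in vehicle mutants, whose ranges overlapped. The means of the treated groups were 15.2 ± 2.37 (SD, n = 5) and 12.4 ± 2.73 (SD, n = 3). Kdm1a averaged 32.7 to 34.6 in the 4 groups, and Xist was listed in 6 of 14 libraries, with both kinds in every group. Markers of excitatory hippocampal neurons, Slc17a7, Prox1, C1ql2, Wfs1 and Fibcd1, had a summed level of 785 to 935. Most of it came from Slc17a7, with a mean of 652, while C1ql2 averaged 58.3 and Wfs1 50.2. C1ql2 and Wfs1, which had the smallest p of these markers, differed with the drug in opposite directions. C1ql2 averaged 52.1 and 54.4 in vehicle wild types and mutants and 63.0 and 60.8 in treated ones. Wfs1 averaged 54.7 and 56.2 under vehicle and 46.8 and 45.4 under TAK-418. Their limma adjusted p-values for the drug averaged over genotypes were 0.225 and 0.327. The sum does not show these differences. The sum of the neuron markers Snap25, Rbfox3 and Syt1 varied more, from 824 to 1618, with Snap25 at 257 to 1068.

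**Figure D1:**
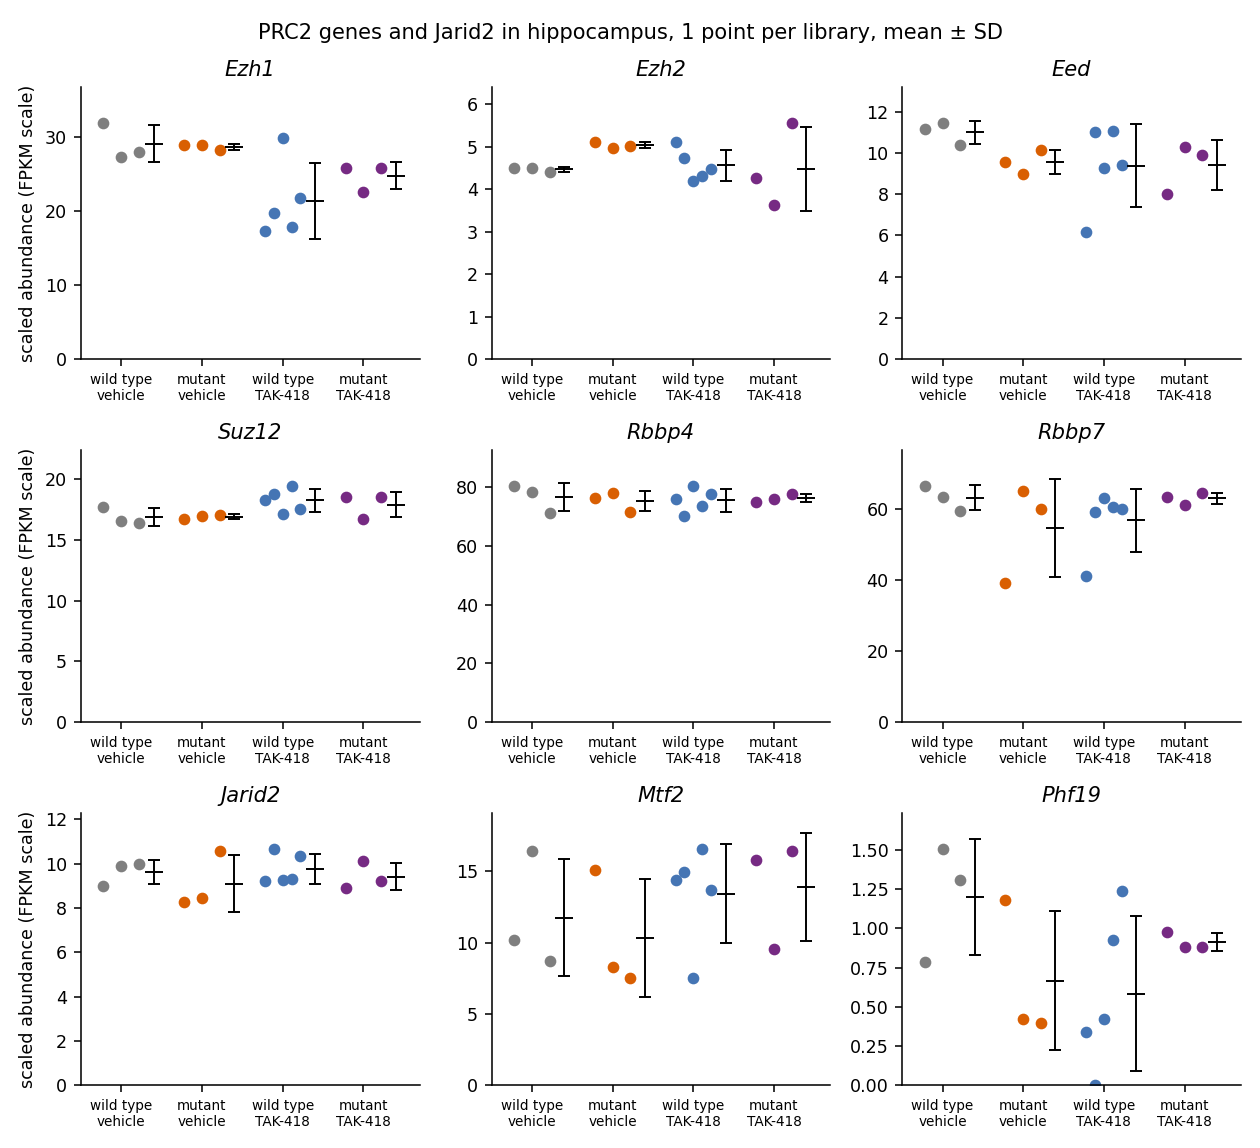
Scaled abundance (FPKM scale, linear axis from 0) of each of the 9 genes, with 1 point per library, 4 groups along the x axis, and the group mean ± SD as black bars. Rbbp4 is the highest at 70.2 to 80.5 and Phf19 the lowest at 0 to 1.51, and most groups overlap.

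The histone-binding subunits were the most abundant genes and Phf19 the least. The order of the genes differed in part between the assembled transcripts and the authors' deposited tables. On the per-length scale of the assembled transcripts the order of the mean over 14 libraries was Rbbp4 at 75.9, Rbbp7 at 59.1, Ezh1 at 25.3, Suz12 at 17.6, Mtf2 at 12.5, Eed at 9.78, Jarid2 at 9.52, Ezh2 at 4.62 and Phf19 at 0.804. Rbbp4 lay above 92.5% of tested genes and Phf19 above 14.4%. Rbbp4 stood above Rbbp7 in 14 of 14 libraries with ranges that did not meet, as did Rbbp7 above Ezh1, Jarid2 above Ezh2 and Ezh2 above Phf19. Neighbours from Ezh1 down to Jarid2 had overlapping ranges, and Mtf2 exceeded Eed in only 8 of 14 libraries and Eed exceeded Jarid2 in 10. The authors' deposited tables, also per length, place Rbbp7 at 71.9 to 74.6 FPKM above Rbbp4 at 33.8 to 36.3. The authors' deposited tables also place Mtf2 at 12.6 to 13.9 FPKM above Suz12 at 11.3 to 11.8. As abundance times kilobases, a product that grows with transcript length, Rbbp7 averaged 184 and Rbbp4 139.

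Ezh1 was the more abundant catalytic subunit in every library. The ratio of Ezh1 to Ezh2 ran from 3.39 to 7.14 with a median of 5.73 over 14 libraries. Among the Polycomb-like proteins the ratio of Mtf2 to Phf19 ran from 6.64 to 42.5 in the 13 libraries that listed Phf19. The per-length ratio of Rbbp4 to Rbbp7 was 1.18 to 1.95, with a median of 1.21, and its direction is the opposite in the authors' deposited tables. Abundance times length was higher for Rbbp7, but that product grows with transcript length and does not rank genes of unlike length.

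The spread across libraries differed between genes and, for some, with the measure. On the per-length scale the coefficient of variation over 14 libraries was 4.25% for Rbbp4 and 5.50% for Suz12, then 7.96% for Jarid2 and 10.7% for Ezh2. It was 14.04% for Rbbp7, 14.5% for Eed, 18.4% for Ezh1, 29.0% for Mtf2 and 54.0% for Phf19. The median over the 13274 genes listed in all 14 libraries was 10.6%. As abundance times length it was 3.88% for Rbbp7, 4.32% for Suz12 and 4.73% for Rbbp4, so that Rbbp7 had the lowest value. It was 7.22% for Ezh1 and 9.59% for Eed on that measure.

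None of the 9 genes passed an adjusted p of 0.05 in limma in any of the 9 contrasts, where few genes of any kind did. The share of tested genes past that threshold was 0% for genotype under vehicle, 0.0121% for genotype under TAK-418, 0.00603% for the drug in mutants and 0% for the drug in wild types. It was 0.0241% for treated mutants against vehicle wild types, 0% for vehicle mutants against treated wild types, 0.00603% for genotype averaged over treatments, 0.0121% for the drug averaged over genotypes and 0.00603% for the interaction. At an unadjusted p under 0.05, limma counted Ezh1 for the drug in wild types, where 8.42% of all genes passed, and for vehicle mutants against treated wild types, where 9.24% did. It counted Ezh1 and Suz12 for the drug averaged over genotypes, where 8.29% of all genes passed. It counted 0 of the 9 genes in the other 6 contrasts, whose shares over all genes were 5.48% for genotype under vehicle, 4.95% for genotype under TAK-418, 4.4% for the drug in mutants, 5.37% for treated mutants against vehicle wild types, 5.85% for genotype averaged over treatments and 4.43% for the interaction. Groups that did not overlap were found for 0 of the 9 genes in the genotype contrast under TAK-418, against 4.6% of tested genes, and for 0 in the drug contrast in wild types, against 6.33%. The median size of the log2 difference was larger for the 9 genes than for all tested genes in some contrasts. It was 0.15 against 0.09 for genotype under vehicle, 0.16 against 0.08 for the drug in mutants and 0.16 against 0.10 in wild types. For the drug averaged over genotypes it was 0.09 against 0.07, and for the interaction 0.21 against 0.13. It was smaller in the others, with 0.05 against 0.09 for genotype under TAK-418 and 0.06 against 0.07 for genotype averaged over treatments. Treated mutants against vehicle wild types had 0.08 against 0.09, and vehicle mutants against treated wild types 0.10 against 0.11.

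**Figure D2:**
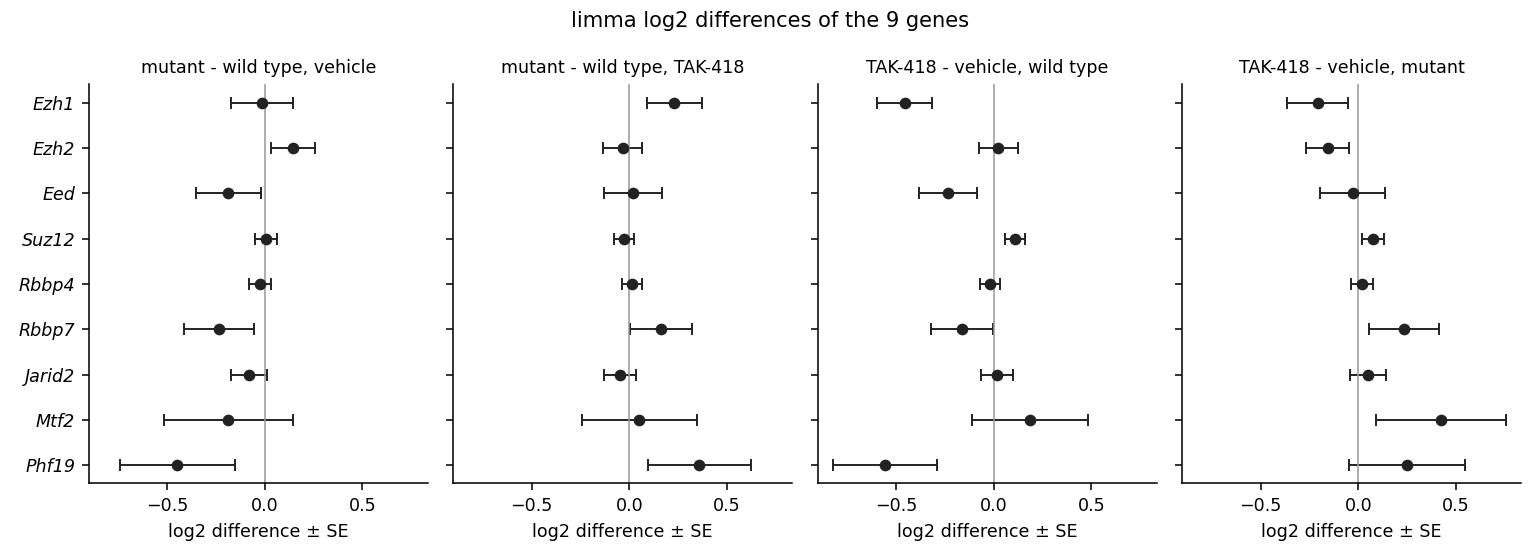
limma log2 differences (x axis, points) with standard errors (bars) of the 9 genes in the 4 simple contrasts, on the log2(scaled abundance + 0.878) scale. The point farthest below 0 relative to its error is Ezh1 for TAK-418 in wild types, at -0.46, and the errors are widest for Mtf2 and Phf19.

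Ezh1, the catalytic subunit of mature cells, is encoded on the minus strand of chromosome 11 (101191115 to 101226463, GRCm38). Vehicle libraries had a scaled Ezh1 abundance of 31.9, 27.2 and 28.0 in wild types and 28.8, 28.9 and 28.2 in mutants. The treated libraries had 17.3, 19.7, 29.9, 17.9 and 21.7 in wild types and 25.7, 22.6 and 25.8 in mutants. All treated libraries but wild-type TAK-418 replicate 3 lay below all 6 vehicle libraries. The mutant groups did not overlap for the drug, a pattern shown by 8.18% of tested genes in either direction, and the wild-type groups overlapped through that replicate.

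The Ezh1 log2 difference for TAK-418 was -0.46 ± 0.141 (SE) in wild types, with an adjusted p of 0.414 in limma. It was -0.33 ± 0.106 (SE) averaged over genotypes, with a limma adjusted p of 0.453, and -0.21 ± 0.157 (SE) in mutants, with a limma adjusted p of 1. Vehicle mutants exceeded treated wild types by 0.44 ± 0.141 (SE), with a limma adjusted p of 0.392. None of these differences passed the threshold.

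The length of the assembled Ezh1 transcripts differed in some of the same libraries. The 21-exon transcript ran 1748 bases past the annotated 3′ end in mutant TAK-418 replicate 1 and in wild-type TAK-418 replicates 1, 2, 4 and 5, and ended within 31 bases of the annotation in the other 9. These were 5 of 8 treated and 0 of 6 vehicle libraries. Mutant TAK-418 replicates 2 and 3, at 22.6 and 25.8, were below the vehicle libraries without a transcript that far past the annotated end. In abundance times kilobases they were at 123 and 104, against 110 to 127 in vehicle libraries. Replicate 2 was then within the vehicle range and replicate 3 below it. The extension reaches into Cntnap1, a gene on the opposite strand whose annotation ends 390 bases from that of Ezh1. The 5 libraries had relative depths of 52.7 to 168 M, and the other 9 of 35.1 to 59.9 M.

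Because abundance is divided by transcript length, the product of abundance and length was also compared. In abundance times kilobases, vehicle libraries had an Ezh1 mean of 118 ± 8.29 (SD, n = 3) for wild types and 117 ± 6.40 (SD, n = 3) for mutants. The treated libraries had means of 123 ± 7.23 (SD, n = 5) and 120 ± 15.2 (SD, n = 3). The log2 difference for TAK-418 became 0.055 ± 0.0793 (SE) in wild types and 0.037 ± 0.0887 (SE) in mutants, and the coefficient of variation over 14 libraries was 7.22%. As given in the authors' deposited tables, Ezh1 stood at 24.3 to 24.7 FPKM in all groups, with log2 fold changes between -0.01 and 0.0032.

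**Figure D3:**
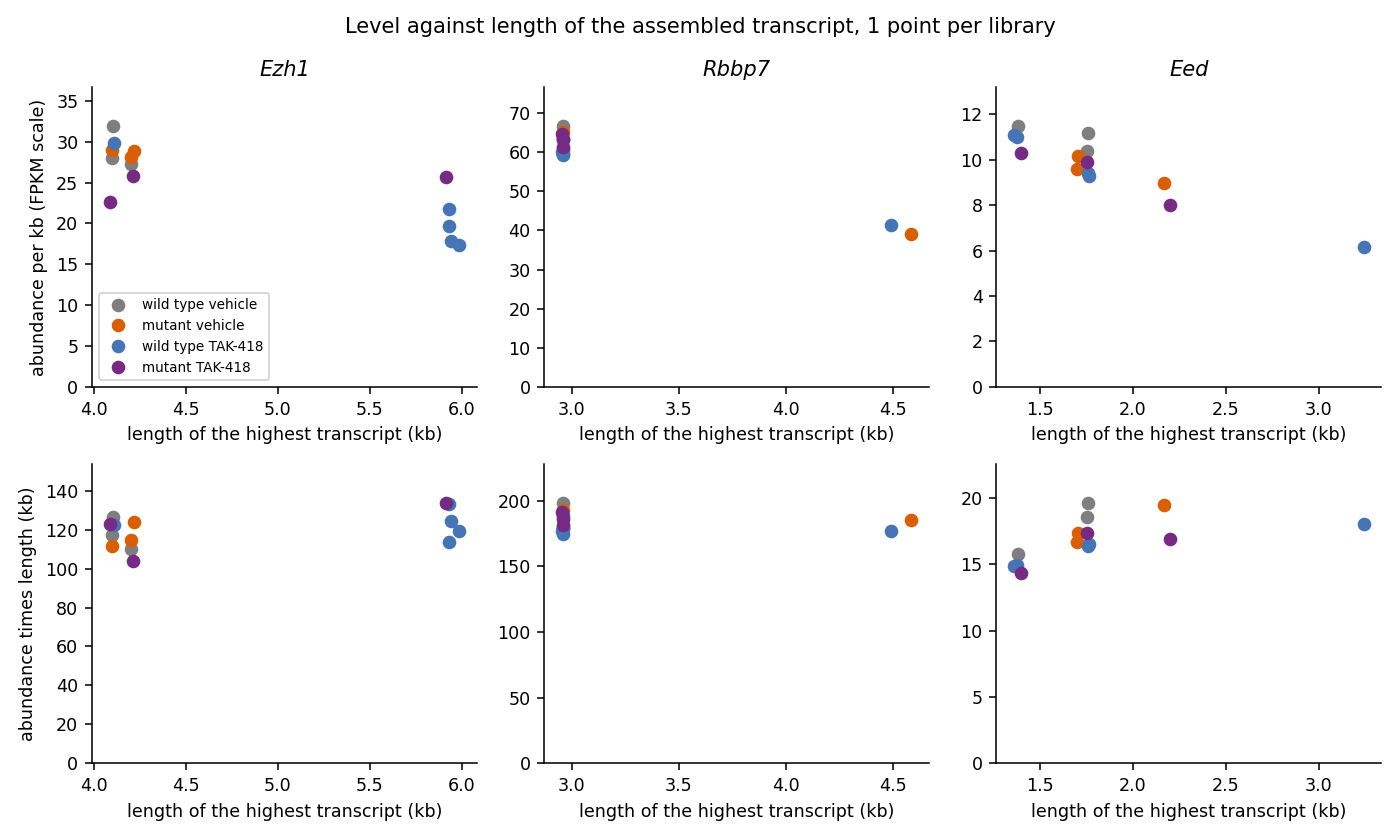
Scaled abundance per kilobase (upper row) and abundance times length in kilobases (lower row), both linear from 0, against the length of the highest transcript in kilobases, for Ezh1, Rbbp7 and Eed, with 1 point per library coloured by group. Libraries with the longer transcript sit lower in the upper row for Rbbp7, at 39.2 and 41.3 against 59.3 to 66.6, and not in the lower row.

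A shorter Ezh1 form, which ends inside the gene on its 3′ side, was assembled beside the 21-exon form. It took 14.5% to 27.8% of the Ezh1 abundance in 10 libraries and was not listed in wild-type TAK-418 replicates 1, 2 and 4 or mutant TAK-418 replicate 2. All 6 vehicle libraries listed it.

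Ezh2, the catalytic subunit of dividing cells, lies on chromosome 6 (47530139 to 47595341, minus strand). Wild-type vehicle libraries had a scaled Ezh2 abundance of 4.49, 4.49 and 4.41, and mutant vehicle libraries of 5.11, 4.96 and 5.02. With TAK-418 the values were 5.11, 4.73, 4.19, 4.30 and 4.47 in wild types and 4.25, 3.63 and 5.56 in mutants. The vehicle groups did not overlap, with mutants higher, and the treated groups overlapped, with the widest spread in mutants.

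Non-overlap under vehicle was shown by 2 of the 9 genes, Ezh2 higher and Eed lower, against 8.9% of tested genes in either direction. The Ezh2 difference was 0.15 ± 0.112 (SE) on the log2 scale, with a limma adjusted p of 0.998. In the highest transcript alone, 1 of the 2 to 6 assembled per library, it was -0.10 ± 0.230 (SE). The authors' deposited table of this contrast gives Ezh2 at 5.79 FPKM in wild types and 5.82 in mutants, with a log2 fold change of 0.0085. Over the authors' deposited tables Ezh2 ran from 5.79 to 6.89 FPKM, and its lowest q-value was 0.715. That value belongs to vehicle mutants over treated wild types, with a log2 fold change of -0.23 in the authors' deposited table, where the limma difference was 0.12 ± 0.1004 (SE).

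The summed level of markers of dividing and stem cells, where Ezh2 is known to be expressed, overlapped between the vehicle groups. Their summed level over 15 genes ran from 208 to 439 in wild types and 155 to 546 in mutants under vehicle, and from 83.2 to 426 and 158 to 182 under TAK-418. Much of that sum came from the most abundant of them, the thymidylate synthase gene Tyms, which ran from 8.32 to 461. The sum therefore says little about the other markers. Top2a, a topoisomerase of dividing cells, averaged 3.27 ± 0.875 (SD, n = 3) in vehicle wild types and 4.09 ± 2.02 (SD, n = 3) in vehicle mutants. For genotype under vehicle, 8 of the 15 genes were higher in mutants and 7 lower. None had an unadjusted p under 0.05 in limma there, where 5.48% of all genes passed. For the drug averaged over genotypes, 6 were higher and 9 lower. Of these 15, 3 had an unadjusted p under 0.05 in limma, where 8.29% of all genes passed. The part of these cells in the Ezh2 values was not tested.

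Eed, the subunit that binds the methylated histone tail, lies on chromosome 7 (89954654 to 89980983, minus strand). Scaled abundance of Eed was 11.2, 11.5 and 10.4 in vehicle wild types and 9.58, 8.98 and 10.1 in vehicle mutants. After TAK-418 it was 6.18, 11.02, 9.28, 11.1 and 9.40 in wild types and 8.03, 10.3 and 9.89 in mutants. Wild-type vehicle libraries lay above both mutant groups, and the lowest value was in wild-type TAK-418 replicate 1, the deepest library.

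The Eed difference was -0.19 ± 0.167 (SE) for genotype under vehicle, with a limma adjusted p of 0.999. Between treated mutants and vehicle wild types it was -0.21 ± 0.167 (SE), with a limma adjusted p of 0.998. In that contrast Eed and Ezh1 were the members without overlap, against 9.53% of tested genes in either direction. Transcript length differed in some of these libraries. The highest Eed transcript had 3240 bases in wild-type TAK-418 replicate 1, 2169 in mutant vehicle replicate 2 and 2197 in mutant TAK-418 replicate 1. Elsewhere it had 1359 to 1763. Mutant vehicle replicates 1 and 3 and mutant TAK-418 replicates 2 and 3 were among those without a longer transcript. Per length they still lay below all vehicle wild types, at 9.58, 10.1, 10.3 and 9.89. As abundance times length, the Eed mean under vehicle was 17.99 ± 1.99 (SD, n = 3) in wild types and 17.8 ± 1.44 (SD, n = 3) in mutants, and the groups overlapped.

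Suz12, the scaffold, lies on chromosome 11 (79993106 to 80034123, plus strand) and was assembled with all 16 exons in every library. Vehicle wild types had 17.7, 16.5 and 16.4 as scaled abundance and vehicle mutants 16.7, 17.0 and 17.1. Treated libraries had 18.3, 18.8, 17.2, 19.5 and 17.6 in wild types and 18.6, 16.7 and 18.5 in mutants. Treated libraries reached higher values, and their lowest, in mutant TAK-418 replicate 2, lay among the vehicle libraries.

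The Suz12 difference for the drug averaged over genotypes was 0.09 ± 0.0384 (SE) in log2 units, at an unadjusted p of 0.0346 and an adjusted p of 0.570 in limma. It was 0.026 in the highest transcript alone and 0.14 with upper-quartile scaling. Vehicle mutants lay below all treated wild types, a non-overlap found in 6.24% of tested genes in either direction, with a difference of -0.10 ± 0.0512 (SE) and a limma adjusted p of 0.575. As abundance times length the averages were 64.0 ± 2.73 (SD, n = 3) and 64.5 ± 0.848 (SD, n = 3) under vehicle against 67.2 ± 2.84 (SD, n = 5) and 67.1 ± 3.74 (SD, n = 3) under TAK-418, for wild types and mutants. Group values of the authors' deposited tables put Suz12 at 11.3 to 11.8 FPKM in every group.

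Rbbp4, a histone chaperone shared with other chromatin complexes, was the most even of the 9 genes on the per-length scale. Libraries of vehicle wild types held 80.2, 78.3 and 71.4 of scaled abundance, with a mean of 76.6 ± 4.67 (SD, n = 3), and those of vehicle mutants 76.4, 78.0 and 71.6, with a mean of 75.4 ± 3.34 (SD, n = 3). The treated means were 75.6 ± 3.92 (SD, n = 5) and 76.4 ± 1.39 (SD, n = 3) for wild types and mutants, and all groups overlapped. The log2 difference for genotype under vehicle was -0.02 ± 0.0574 (SE). The annotated gene shares 1460 bases with Sync on the opposite strand of chromosome 4, up to position 129308559. The library kit named in the labels does not mark strand, so reads there cannot be told apart. Where a single Rbbp4 transcript was assembled, it ended near 129309616, outside those bases. A second transcript reached into them in wild-type vehicle replicate 3, mutant vehicle replicate 1 and wild-type TAK-418 replicates 3 and 5.

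Rbbp7, its close relative on the X chromosome, was as even except in 2 libraries. Scaled Rbbp7 abundance was 66.6, 63.4 and 59.5 in vehicle wild types and 39.2, 65.1 and 60.0 in vehicle mutants. Under the drug it was 41.3, 59.3, 63.0, 60.7 and 60.1 in wild types and 63.3, 61.3 and 64.5 in mutants. Only mutant vehicle replicate 1 and wild-type TAK-418 replicate 1 fell outside 59.3 to 66.6.

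In those 2 libraries the Rbbp7 transcript was 4587 and 4492 bases long, against 2952 to 2959 in the other 12. It ran 2426 and 2326 bases past the annotated 3′ end, against 791 elsewhere, into Txlng on the opposite strand. The log2 difference for genotype under vehicle was -0.23 ± 0.179 (SE), with a limma adjusted p of 0.998, and it was -0.01 without mutant vehicle replicate 1. As abundance times length Rbbp7 was 185 and 176 in the 2 libraries, within the 175 to 198 of the other 12, and the coefficient of variation was 3.88%. Values in the authors' deposited tables for Rbbp7 stood at 71.9 to 74.6 FPKM in all groups.

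Mtf2, a Polycomb-like protein that links PRC2 to CpG-rich DNA, had the widest spread of the well-expressed members. Vehicle libraries had a scaled Mtf2 abundance of 10.2, 16.4 and 8.67 in wild types and 15.1, 8.32 and 7.54 in mutants. Treated ones had 14.4, 14.96, 7.53, 16.6 and 13.7 in wild types and 15.8, 9.52 and 16.4 in mutants. Values left a gap between 10.2 and 13.7, with 6 libraries under it, of which 4 were vehicle and 2 treated, and each group had libraries on both sides.

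The Mtf2 difference for the drug averaged over genotypes was 0.30 ± 0.222 (SE), with a limma adjusted p of 0.734, and 0.57 ± 0.210 (SE) without the 2 libraries high in Lars2. The gene was assembled as 61 transcripts over 14 libraries, 2 to 7 in each, more than any other member. The highest transcript had 15 exons in 12 libraries. In 7 libraries transcripts also began over 1 kilobase downstream of the annotated start, with up to 46.4% of the Mtf2 abundance, in wild-type vehicle replicate 1. The authors' deposited tables list Mtf2 at 12.6 to 13.9 FPKM in all groups. The 3′ end of Mtf2 shares 2639 bases with Tmed5 on the opposite strand.

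Phf19, the other Polycomb-like protein, was near the lower limit of assembly. Vehicle wild types had a scaled abundance of 0.786, 1.51 and 1.31 and vehicle mutants of 1.18, 0.423 and 0.397. Under TAK-418 the values were 0.338, 0, 0.420, 0.924 and 1.24 in wild types and 0.978, 0.879 and 0.880 in mutants. The groups overlapped within a range of 0 to 1.51, and wild-type TAK-418 replicate 2 listed no Phf19 transcript.

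The transcripts of Phf19 were fragments of 3 to 6 exons in 12 libraries, while the deepest library gave 12 exons of the 15 annotated. The log2 difference of Phf19 for genotype was -0.45 ± 0.296 (SE) under vehicle, and the interaction of genotype and drug was 0.81 ± 0.398 (SE), with limma adjusted p-values of 0.974 and 0.976. As abundance times length, those differences were -0.16 and 0.12. The authors' deposited table of mutant over wild-type vehicle has the opposite direction for Phf19, with 0.513 against 0.417 FPKM and a log2 fold change of 0.30. A second Phf19 locus is listed at 0 in all of the authors' deposited tables.

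Jarid2, which recruits PRC2 and marks its other accessory form, lies on chromosome 13 (44729474 to 44921643, plus strand). On its exons the scaled abundance was 9.004, 9.90 and 10.007 in vehicle wild types and 8.29, 8.44 and 10.6 in vehicle mutants. With the drug it was 9.23, 10.7, 9.27, 9.29 and 10.3 in wild types and 8.91, 10.1 and 9.23 in mutants. All groups overlapped, and the highest library exceeded the lowest by 1.29 times. The log2 difference was -0.06 ± 0.0624 (SE) for genotype averaged over treatments and 0.03 ± 0.0624 (SE) for the drug averaged over genotypes, with limma adjusted p-values of 0.902 and 0.903.

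The authors' deposited tables carry 2 loci named Jarid2 with the same span, chr13:44729473-45002147, which also takes in Dtnbp1. The first locus stood at 6.73 to 7.68 FPKM in all groups of the authors' deposited tables and was not called. The second stood at 202 to 206 FPKM in wild types and at 1427 to 1997 FPKM in mutants of the authors' deposited tables.

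As listed in the authors' deposited table of mutant over wild-type vehicle, this second locus was 1992 against 205 FPKM, with a log2 fold change of 3.28 and a q-value of 0.0270. In the authors' deposited table of treated mutants over treated wild types it was 1427 against 204, with a log2 fold change of 2.81 and a q-value of 0.0240. For treated mutants over vehicle wild types the log2 fold change of the authors' deposited table was 2.81 and the q-value 0.0185. In the remaining one of the authors' deposited tables, of vehicle mutants over wild types with TAK-418, it had 3.30 and 0.00995. That is the one q-value of the 4 under 0.01, in a table where 0.503% of loci had one so low, against 0% in the other 3. The unadjusted p-value of the second locus was 5e-05 in all 4 of the authors' deposited tables. The q-values thus differ through the adjustment within each of these tables. These tables share groups, so they are not independent of each other. It was the called locus among the 11 member loci of each table, where the share of tested loci with a q-value under 0.05 was 0.224%, 0.218%, 0.324% and 0.611% in the order given. As the gene was chosen for these calls, nothing is read from that count.

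Exonic Jarid2 transcripts reached at most 11.3 in any library. High values in the span came from unspliced fragments between 44869570 and 44870026, in intron 4 of the 19-exon Jarid2 transcript, 21148 bases after the exon before and 4256 bases before the next. Other transcripts of the locus reached at most 36.1. The fragments overlapped no Jarid2 exon, and 19 of the 20 fragments carried no strand. The highest fragment of a library was 147 to 153 bases long in 9 libraries, with abundances as deposited of 2003 to 3868.

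Mutant vehicle replicate 1 stood apart from the rest. It carried a fragment of 431 bases with an abundance of 20169, which is 5.21 times the next highest. Mutant vehicle replicate 2 was next at 3868, and mutant vehicle replicate 3 listed no fragment. Wild-type vehicle libraries had 2663, 2117 and 2547, and the 4 wild-type TAK-418 libraries that listed a fragment had 2750, 2003, 2435 and 2856. Among treated mutants only replicate 3 listed one, at 2373, and wild-type TAK-418 replicate 1 listed none.

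The fragment was not higher in every mutant library, and mutants and wild types overlapped. An unlisted fragment is one that was not assembled, which gives no level. The library with the fragment at 20169 was also high in Lars2 and was the only one with Rn7s1 and Rn7s2, copies of the 7SL RNA gene, at 1833 and 3749, against 0 to 1.19 elsewhere. The part of such transcripts in the Jarid2 locus was not tested, and whether the second locus of the tables is this fragment is not stated in the sources used here.

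**Figure D4:**
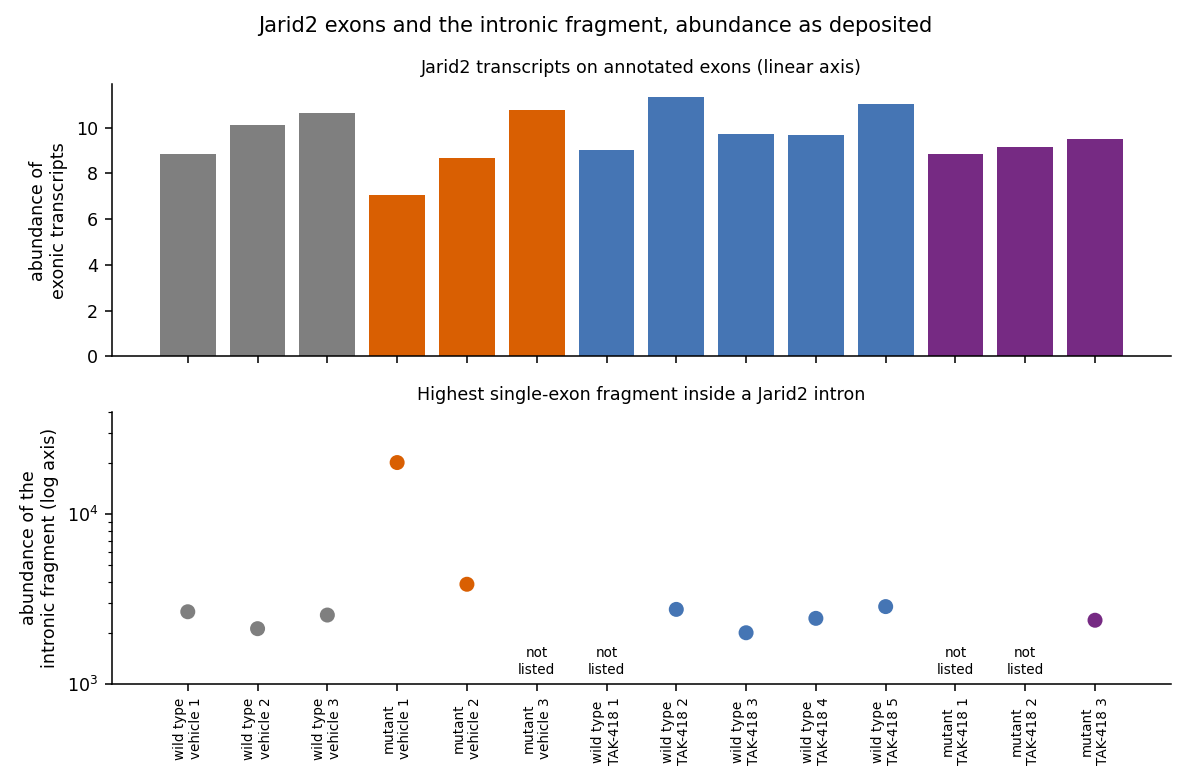
Abundance as deposited of Jarid2 transcripts on annotated exons (bars, linear axis from 0, upper panel) and of the highest fragment in the Jarid2 intron (points, log axis, lower panel), for 14 libraries coloured by group. Exonic abundance is 7.04 to 11.3 in all libraries, while the fragment is 20169 in mutant vehicle replicate 1, 2003 to 3868 in 9 libraries and not listed in 4.

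The exonic transcripts of Jarid2 were grouped by the 2 starts whose promoters are shown above, at 44730774 and 44731271. Their ends did not all match these positions. The first base lay at 44729742 in wild-type TAK-418 replicate 2, before the upstream start. In mutant vehicle replicate 1 it lay at 44731614, past the downstream start. The upstream start gives the 19-exon form and the downstream start, with TATAAA before it, the 18-exon form. The downstream form was the larger share in 11 of 14 libraries, at 65.9% to 100% of the abundance of multi-exon transcripts. The upstream form took 100% in mutant vehicle replicate 2, wild-type TAK-418 replicate 2 and mutant TAK-418 replicate 3, which gives 1 library in each of 3 groups. Wild-type vehicle replicate 1 also had an internal start with 12.2%. Within mutant vehicle libraries alone, the upstream share was 0%, 100% and 26.8%.

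The genes most like Jarid2 and Ezh2 across libraries were found by Pearson correlation of log2 values, taken as deviations from the group means, over 14 libraries and 13273 genes. For Jarid2 they were Faap24 at 0.92, Rims4 at 0.92 and Nyap1 at 0.86. For Ezh2 they were Adam9 at 0.97, Cybc1 at 0.89 and Morc4 at 0.89. The values are the highest of many and share library, depth and scaling, so they describe these libraries.

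Other genes of the Polycomb system were tested in the same contrasts. None of the 5 tested other PRC2 genes, 25 PRC1 genes, 8 genes of the Polycomb deubiquitinase, 3 H3K27 demethylases, 2 H3K27 acetyltransferases and 21 genes of other Rbbp4 and Rbbp7 complexes passed an adjusted p of 0.05 in limma in any contrast. At an unadjusted p under 0.05, limma counted 3 of 25 PRC1 genes for genotype under vehicle, where 5.48% of all genes passed, 3 for the drug in mutants, where 4.4% did, and 3 for the drug averaged over genotypes, where 8.29% did. For genotype averaged over treatments, where 5.85% of all genes passed, it counted 0 PRC1 genes and 1 gene of the other Rbbp4 and Rbbp7 complexes. The median log2 difference in that contrast was -0.04 for the other PRC2 genes, -0.01 for PRC1, -0.03 for the deubiquitinase and 0.02 for the other Rbbp4 and Rbbp7 complexes, beside 0.0027 for all tested genes. For the drug averaged over genotypes, 7 of 8 deubiquitinase genes were on the higher side, none at an unadjusted p under 0.05, with a median of 0.06. For the drug in wild types 7 of 8 were also on the higher side, 2 of them at an unadjusted p under 0.05 in limma, against 8.42% of all genes. Foxk1, a forkhead factor of that complex, differed by 0.46 ± 0.134 (SE) there, with a limma adjusted p of 0.364.

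Among the other PRC2 genes Aebp2, a partner of Jarid2 in the same form of the complex, averaged 19.3 ± 1.71 (SD, n = 14), and Phf1, the remaining Polycomb-like gene, 14.4 ± 1.08 (SD, n = 14). Lcorl differed by 0.33 ± 0.146 (SE) for the drug in wild types, with a limma adjusted p of 0.580. Epop, a cofactor of the Mtf2 form, ranged from 0.225 to 14.6. In PRC1, Cbx6, a reader of H3K27 methylation, averaged 134 ± 9.86 (SD, n = 14). Of the enzymes that oppose PRC2, the H3K27 demethylase Kdm6a averaged 8.996 and Kdm6b 8.60. Ep300 and Crebbp, acetyltransferases of the same residue, averaged 14.1 and 11.6. Of the genes that share Rbbp4 and Rbbp7, Chd3 averaged 155 and Chd4 85.2, both remodellers of the NuRD complex.

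Many classical targets of PRC2 had no assembled transcript. Of 60 such genes, 22 had a value in at least 1 library and 38 were listed at 0 in all 14. Over all annotated genes, 18735 of 55450 had a value. These include pseudogenes and noncoding RNA genes, so the shares cannot be compared. Of the 13 that were tested, 0 passed an adjusted p of 0.05 in limma in any contrast. For genotype under vehicle, limma counted 4 of the 13 at an unadjusted p under 0.05, against 5.48% of all genes, and the median log2 difference was 0.14. For genotype under TAK-418 it counted 1, against 4.95%, and the median was -0.13. For the drug in mutants it counted 3, against 4.4%, and the median was -0.23. Only 6 of the 13 were listed in all 14 libraries. Tbx15 and Msx2, which had the smallest p of these targets, ranged from 0 to 0.763 and from 0 to 0.701. A value of 0 means that no transcript was assembled. The part of values of 0 in these counts was not tested. The summed level of the list under vehicle was 15.6 to 37.1 in wild types and 26.7 to 45.9 in mutants. Under TAK-418 it was 11.1 to 29.0 and 12.9 to 15.2. Much of the sum came from Nkx2-1 alone, with vehicle means of 9.80 in wild types and 16.7 in mutants. Its means under TAK-418 were 5.26 and 0. The sum therefore says little about the other targets.

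Nkx2-1, a factor of the ventral forebrain, was the most abundant of these targets and ranged from 0 to 26.0. Its log2 difference for the drug in mutants was -4.23 ± 1.24 (SE), with a limma adjusted p of 0.803. Nkx2-1 was at 0 in all 3 treated mutants. Choroid plexus markers, from a tissue beside the hippocampus, also had a wide range, and the sum over 10 genes was 103 to 7228 in wild types and 111 to 5832 in mutants under vehicle, and 85.9 to 145 and 82.7 to 730 under TAK-418. The part of tissue from outside the hippocampus in the target values was not tested.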

How the data were processed

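Each file of a library holds transcripts assembled with CLASS 2.1.7, per the file headers. Reads were handled with FastQC and TopHat2 2.1.0 on mm10, per the submitters' processing notes, which give no role or order. The deposited files carry an Abundance score for every transcript, whose unit no source used here states. Its scale was worked out from the values. Abundance times length fell on whole multiples of 1 step, within 0.1, for 83.7% to 99.7% of the transcripts checked in a library. Only single-exon transcripts with low values of that product were checked. The step was chosen to fit part of these same values best, so the share is not an independent check. The step gives the relative depth. The 4 comparison tables deposited by the authors hold, per the file headers, FPKM-type values of a group, a log2 fold change, a p-value and a q-value for each of 81411 loci, with the libraries of a group pooled. Each of the 8 group columns resembled its own named group most.

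Transcripts were assigned to the 55450 genes of GENCODE M21 (GRCm38) by shared introns, otherwise by overlap with exons, at least 50% for a single exon. Abundances were summed by gene and put on one scale with median-of-ratios factors from the 13274 genes that all 14 libraries list. A gene had to be listed in 3 or more libraries to enter the test, which used log2(value + 0.878), the pseudocount being the 10th percentile of nonzero values. A gene listed at 0 has no assembled transcript, and fold changes of low genes are understated by the pseudocount. limma 3.58.1 (trend) in R 4.3.3 fitted 4 group means to all 14 libraries. The 9 contrasts were adjusted by Benjamini-Hochberg over all genes at 0.05. The fit was tested on simulated data. Python 3.11.15, numpy 2.4.6, pandas 2.3.3 and matplotlib 3.10.9 did the rest.

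The members, lists and rule for named genes were chosen with earlier results of these data known. The rule names the 9 members, Kmt2d and Kdm1a, of each list the genes past the threshold, the 2 highest and the 2 with the smallest p, and the 3 genes most like Jarid2 and Ezh2. Not all list genes it names are reported here. Lars2, Rn7s1 and Rn7s2 were named after their values were seen. Alternatives covered pseudocount, filter, scaling, transcript choice, transcript length, the libraries in the fit, covariates, the limma settings and leaving out each library. Replicate numbers follow accession order and pair no samples. The labels name 2 versions of the library kit without tying them to libraries, and the series text gives 3-4 mice per group, while 5 libraries are labelled wild type with TAK-418. Genes with near-identical copies and overlapping genes remain uncertain.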

Additional observations from a re-analysis of the deposited data

Results flagged for a closer look

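In the group of 5 wild-type TAK-418 libraries, 14 measures were checked for 1 value that lies apart from the other 4, and 4 measures had one. Chance does this in about 1 of 20 groups, and 3 of the 4 come from the same library. Rbbp7 was 41.3 in replicate 1, against 59.3 in the nearest of the others. The ratio of Rbbp4 to Rbbp7 was 1.84 in the same library, where the nearest was 1.29. Relative depth was 168 M in that library and 56.1 M in the next. The Jarid2 transcripts of replicate 2 took 100% of their abundance from the upstream start, against 19.7% in the nearest of the others. The groups of 3 libraries were not screened.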

How the results depend on the processing

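In 29 settings, 0 of the 9 members passed the threshold in any contrast. The smallest adjusted p of limma was 0.0789, for Ezh1 and the drug in wild types without wild-type TAK-418 replicate 3. Abundance times length turned the sign of Ezh1 to 0.046 for the drug averaged over genotypes, 0.055 in wild types, 0.037 in mutants, -0.072 between vehicle mutants and treated wild types and 0.020 between treated mutants and vehicle wild types. The highest transcript alone turned Ezh2 under vehicle to -0.10 and Jarid2 for genotype averaged over treatments to 0.019, kept 6 of 9 places in the order of levels, and gave a median Ezh1 to Ezh2 ratio of 7.20. Leaving out the 2 libraries high in Lars2, chosen after seeing the data, turned Jarid2 for the averaged drug to -0.020. With the q-value limit set to 0.01, 1 of the 4 Jarid2 calls of the authors' deposited tables is left, and the 3 tables without one then call no locus at all. The named differences of Suz12, Rbbp7, Mtf2, Phf19 and Eed kept their sign in the settings run. Those of Rbbp4 and of genes outside the 9 were not recomputed.

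Leaving out each library in turn gave 0 members past the threshold in each contrast. Ezh1 then ranged from -0.40 to -0.30 for the averaged drug, -0.58 to -0.39 in wild types, -0.24 to -0.15 in mutants, 0.37 to 0.57 for vehicle mutants against treated wild types and -0.27 to -0.16 between treated mutants and vehicle wild types. Suz12 ranged from 0.08 to 0.12 for the averaged drug and -0.12 to -0.08 for vehicle mutants against treated wild types. Rbbp7 under vehicle ranged from -0.37 to -0.01, the latter without mutant vehicle replicate 1. Mtf2 for the averaged drug ranged from 0.22 to 0.45. Phf19 ranged from -0.71 to -0.39 for the drug in wild types, -0.68 to -0.33 for genotype under vehicle and 0.64 to 1.05 for the interaction. Eed ranged from -0.28 to -0.11 between treated mutants and vehicle wild types and -0.23 to -0.15 under vehicle. Ezh2 under vehicle ranged from 0.14 to 0.15, and Jarid2 from -0.12 to -0.04 for genotype and 0.0036 to 0.08 for the drug. No paired analysis was possible because the replicate numbers pair no samples. Groups of 3 to 5 libraries limit what could be detected, and Phf19 is at the lower limit of assembly.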
